A study of Mus musculus with 14 samples.

Results

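The long copies of L1Md_T, a young subfamily of the mouse retrotransposon LINE-1 (L1), were described locus by locus in male germ cells with and without DNMT3C. A copy was taken when its subfamily name was exactly L1Md_T and its annotated span reached at least 5000 bp, a rule that uses no expression value. Of 3725827 transposable element (TE) copies listed, 23688 belonged to L1Md_T and 5059 of these met the length limit. The 5059 copies were 5000 to 13492 bp long with a median of 6065 bp, and 2630 of them reached 6000 bp.

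L1 elements copy themselves through an RNA that is transcribed from a promoter at their own 5′ end and that codes for an RNA-binding protein and for an enzyme with endonuclease and reverse transcriptase activity. Copies that were cut short at the 5′ end during insertion lack this promoter, so that long copies are the ones that can hold a complete element. In the male germ line the promoters of young L1 subfamilies are normally silenced by DNA methylation, and in rodents the methyltransferase DNMT3C methylates them in the fetal testis. The promoter of L1Md_T is built of tandem repeats called monomers.

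PolyA RNA-seq was carried out on sorted germ cells of mice of the C57Bl6/J background that were either Dnmt3CKO/KO (KO) or wild-type littermates (WT), with knockout alleles of Dnmt3C on both chromosomes of the KO animals. Spermatogonia were sorted at 14 days after birth as living cells that carried Ep-CAM and lacked β2-microglobulin, and gave 3 KO and 3 WT libraries. Spermatocytes were sorted with a Hoechst dye and propidium iodide from mice older than 20 days and gave 4 KO and 4 WT libraries. Nothing in the labels says whether the libraries of a group came from separate animals, so the p-values measure the spread between these samples. KO germ cells stop in meiotic prophase, so the WT spermatocyte gate can hold later stages that KO testes lack.

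The libraries held 40555726 to 53323651 counts over genes and TE subfamilies, of which TE subfamilies took 1.77 to 8.67%. The targeted gene was not called at either stage. Dnmt3c had 116, 58 and 67 counts in KO and 89, 65 and 53 in WT spermatogonia (log2 fold change 0.10, with an edgeR adjusted p of 1) and 55, 56, 52 and 57 in KO and 28, 11, 19 and 25 in WT spermatocytes (0.77 ± 0.42 SE, edgeR adjusted p = 0.124). The groups overlapped in spermatogonia and every KO library was above every WT library in spermatocytes, and RNA counts over the whole gene do not check an inactivating allele. In spermatogonia the summed markers overlapped for the germ cell lists, with 1241 to 1537 CPM (counts per 1000000) in KO and 1026 to 1381 in WT for 6 spermatogonia genes and 45.7 to 88.3 and 82.0 to 613 for 4 pachytene genes. Of these Piwil1 and Spag6 were lower in every KO library, Piwil1 with 12.9 to 15.9 CPM against 48.9 to 534 (log2 fold change −4.07, edgeR adjusted p = 0.0980). The 4 early meiotic genes summed to 370 to 589 CPM in KO and 422 to 611 in WT spermatogonia. This sort also held Sertoli cell RNA, with 127 to 401 CPM in KO and 89.8 to 345 in WT for 4 genes. Leydig, macrophage and peritubular sums overlapped as well and did not exceed 10.04 CPM. In spermatocytes 4 pachytene marker genes summed to 91.9 to 227 CPM in KO and 1963 to 2673 in WT (3 of 4 called lower), 4 spermatid genes to 0.148 to 6.24 and 25.6 to 856 (4 of 4 lower), and 6 spermatogonia genes to 306 to 904 and 13.8 to 154 (4 of 6 higher). Markers of somatic cells were also higher in the KO sort, with 51.4 to 274 against 6.64 to 15.4 CPM for 4 Leydig cell genes, 14.1 to 74.9 against 1.11 to 2.84 for 3 macrophage genes and 9.22 to 161 against 1.32 to 5.24 for 2 peritubular genes, all of them called by edgeR, whereas the sums overlapped for 4 Sertoli cell genes (59.6 to 203 against 14.6 to 70.04). The other 2 lists were 4 early meiotic genes, with 692 to 1213 against 286 to 717 CPM and 3 of 4 called higher, and 2 hemoglobin genes of red cells, with 0.0446 to 7.78 against 0.163 to 0.567 CPM. The part of these marker differences in the results of either stage was not tested. In bulk RNA fewer cells of a type and less RNA per cell cannot be told apart.

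The 5′ ends of members show what the length limit is about, and they are given here for 4 copies for which an annotated transcript (GENCODE M21, GRCm38) holds the first 300 bases. Transcripts covered this stretch in 19 of the 5059 copies, and the 4 were chosen after their values were seen, to span high to low KO levels. The copies were L1Md_T_dup20626 (chr15:35589934-35590233, minus strand, within a transcript of Gm7968), L1Md_T_dup17899 (chr12:77553474-77553773, minus strand, Gm35240), L1Md_T_dup4872 (chr4:54655412-54655711, plus strand, Gm12480) and L1Md_T_dup4817 (chr3:156731514-156731813, minus strand, Gm42943). Capitals in the copies mark GCCATCTT, which is the YY1-type motif AAGATGGC read on the other strand. The last line is the L1spa forward primer, an oligo designed in the study, whose capitals mark the bases equal to its first match in L1Md_T_dup20626.
L1Md_T_dup20626: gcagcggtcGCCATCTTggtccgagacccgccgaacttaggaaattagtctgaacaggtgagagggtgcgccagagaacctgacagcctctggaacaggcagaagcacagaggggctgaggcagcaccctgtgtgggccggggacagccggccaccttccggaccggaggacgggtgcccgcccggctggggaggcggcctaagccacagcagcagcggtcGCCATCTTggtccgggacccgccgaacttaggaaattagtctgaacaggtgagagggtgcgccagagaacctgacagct
L1Md_T_dup17899: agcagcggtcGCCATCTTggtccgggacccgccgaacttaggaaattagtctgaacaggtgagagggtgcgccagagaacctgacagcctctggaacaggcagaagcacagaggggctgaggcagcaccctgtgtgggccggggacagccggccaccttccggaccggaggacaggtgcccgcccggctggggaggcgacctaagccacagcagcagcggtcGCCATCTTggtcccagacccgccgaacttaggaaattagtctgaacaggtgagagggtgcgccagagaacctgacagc
L1Md_T_dup4872: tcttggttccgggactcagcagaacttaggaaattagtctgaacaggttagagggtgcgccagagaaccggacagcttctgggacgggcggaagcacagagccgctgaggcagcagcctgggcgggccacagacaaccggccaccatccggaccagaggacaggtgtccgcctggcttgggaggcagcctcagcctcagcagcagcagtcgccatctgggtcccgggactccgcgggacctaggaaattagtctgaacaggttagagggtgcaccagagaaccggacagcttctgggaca
L1Md_T_dup4817: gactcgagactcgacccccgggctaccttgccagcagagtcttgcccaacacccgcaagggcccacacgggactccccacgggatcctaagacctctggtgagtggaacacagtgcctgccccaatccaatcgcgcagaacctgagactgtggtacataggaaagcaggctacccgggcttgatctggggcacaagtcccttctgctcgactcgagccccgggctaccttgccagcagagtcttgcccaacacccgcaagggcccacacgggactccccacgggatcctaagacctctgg
L1spa forward primer: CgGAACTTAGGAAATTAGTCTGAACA

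Each of the 4 stretches held 1 whole monomer and the start of the next, nearly equal one. The offset that gave the most equal bases was 212 in L1Md_T_dup20626 and L1Md_T_dup17899 (86 of 88 bases equal in both), 214 in L1Md_T_dup4872 (78 of 86) and 201 in L1Md_T_dup4817 (92 of 99). The primer matched with up to 3 mismatches at bases 31 and 243 of L1Md_T_dup20626, 32 and 244 of L1Md_T_dup17899 and 20 and 234 of L1Md_T_dup4872, counted from 1 at the 5′ end, and nowhere in L1Md_T_dup4817, where its best placement had 10 mismatches. Their KO levels ran in the order in which they are listed, with mean TPM of 2.04, 1.27, 0.559 and 0.022 in spermatogonia and 5.36, 2.60, 1.24 and 0.0981 in spermatocytes. In the WT spermatocyte libraries L1Md_T_dup20626 had 0.032, 0.0287, 0.0427 and 0 TPM and L1Md_T_dup4817 had 0 in all 4.

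Among the 19 copies with a readable 5′ end, 12 matched the primer and 7 held AAGATGGC on either strand. The same letters stood in 2.75% of 32851 RefSeq promoter windows of 300 bases (GRCm38.p6). The letters GCGCATGC of the NRF1 motif, GTGGGAA of the RBPJ motif and TGACGTCA of the CREB motif, searched on both strands, were in none of the 19 stretches and in 2.71, 6.38 and 1.79% of the promoter windows. At shares this low, 19 stretches searched for exact letters can hold no match, so nothing is read from their absence. The study itself found NRF1 enriched on unmethylated L1MdT bait DNA, and NRF1 and RBPJ by motif analysis at LINE1 copies. The 7 copies with AAGATGGC had a median KO level of 0.263 TPM in spermatogonia and 0.759 in spermatocytes, and the 12 without it 0.0687 and 0.250. These medians describe few copies that were picked by the presence of an annotated transcript, and no test was made of them.

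In spermatogonia the RNA of long L1Md_T copies was higher in every KO library than in every WT library. Their summed TPM, which is a share of 1000000 given to all TE copies of a library, was 5266, 2251 and 1613 in the 3 KO libraries and 164, 113 and 113 in the 3 WT libraries. The groups did not overlap, and KO replicate 1 stood above the other KO libraries by more than the whole WT level. The ratio of geometric means was 20.9 (log2 difference 4.38, two-sided exact permutation p = 0.1, which is the smallest that 3 against 3 can give). In whole reads the members took 220637, 166935 and 77741 in KO and 5912, 5612 and 6294 in WT, or 4.71 to 12% of TE reads against 0.404 to 0.554%.

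In spermatocytes the gap was wider on the same scale. The summed TPM was 10771, 4688, 8083 and 12587 in KO and 154, 104, 226 and 158 in WT. KO replicate 2 was the lowest of its group and WT replicate 3 the highest of its own, and the groups lay far apart. The ratio of geometric means was 54.7 (log2 difference 5.77, two-sided exact permutation p = 0.029, the smallest that 4 against 4 can give). Replicates 1 and 4 of each genotype were far closer to each other than the other pairs, and averaged they gave 5.63 with p = 0.1 by the exact permutation test. Counted that way, 3 against 3 cannot go below 0.1 in any exact test of spermatocytes. The members took 11.2 to 19.0% of TE reads in KO and 0.340 to 0.707% in WT, and per 1000000 counts of all features they took 13563, 6325, 12795 and 15567 reads in KO and 85.5, 70.5, 202 and 83.2 in WT. TPM counts only TE reads, and scaled to all counts of a library the log2 difference was 7.61. With spermatogonia and spermatocytes normalized in separate tables, the sizes of the 2 differences were not tested against each other.

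**Figure D1:**
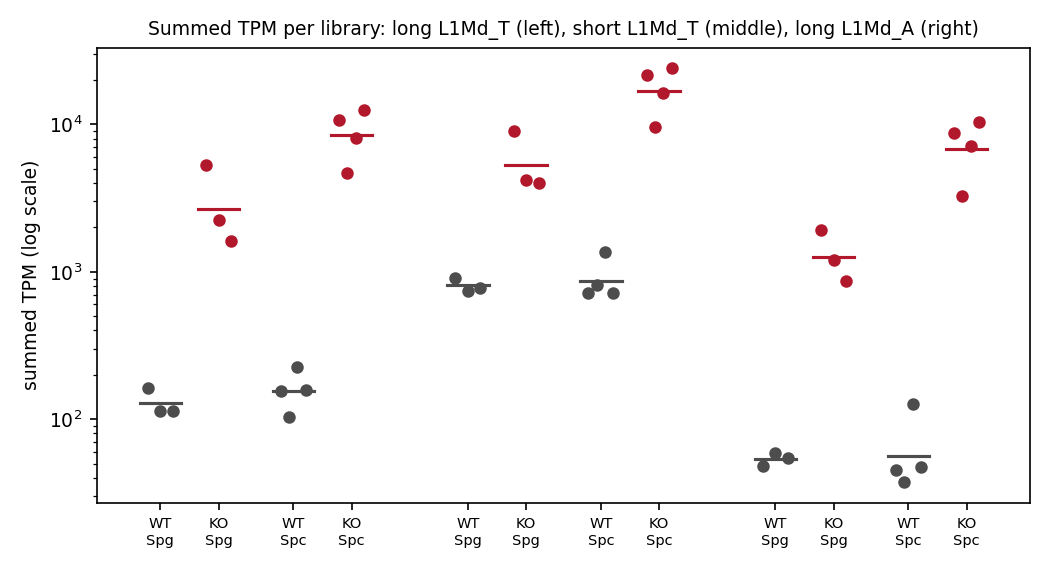
Summed TPM per library (log axis) of long L1Md_T copies (left), L1Md_T copies under 5000 bp (middle) and long L1Md_A copies (right), with points for libraries (grey WT, red KO; Spg for spermatogonia, Spc for spermatocytes) and horizontal lines for the geometric mean of a group. For long L1Md_T the 3 KO spermatogonia libraries sit between 1613 and 5266 against 113 to 164 in WT, and the 4 KO spermatocyte libraries between 4688 and 12587 against 104 to 226.

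WT replicate 3 of spermatocytes stood apart in how many members it held. It had reads on 1786 of the 5059 copies, the most of any WT library, whereas the other WT spermatocyte libraries had reads on 889, 520 and 830. The same library had the highest summed spermatogonia markers of the WT sort, at 154 CPM. Without it the log2 difference of the summed TPM was 5.96, with the KO libraries still above the 3 others.

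By the deposited estimates the rise was spread over many copies. In KO libraries 3510 to 4201 members had reads in spermatogonia and 4442 to 4827 in spermatocytes, against 947 to 1140 and 520 to 1786 in WT. The number of copies that together gave 50% of the members' TPM was 446, 444 and 407 in KO and 40, 56 and 26 in WT spermatogonia, and 487, 458, 498 and 485 in KO and 11, 2, 119 and 19 in WT spermatocytes. The single highest copy took 0.319 to 0.707% in KO libraries of both stages, but 7.29 to 16.7% in WT spermatogonia and 10.3 to 35.3% in WT spermatocytes. So by these estimates the low total in WT rested on few loci, and the total in KO on many. Reads that map to many loci were shared out among near-identical copies, so a copy with reads need not itself be transcribed. How many KO copies this concerns was not tested. A WT library with few reads on the members can also show few copies, so these counts are not independent of the total.

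**Figure D2:**
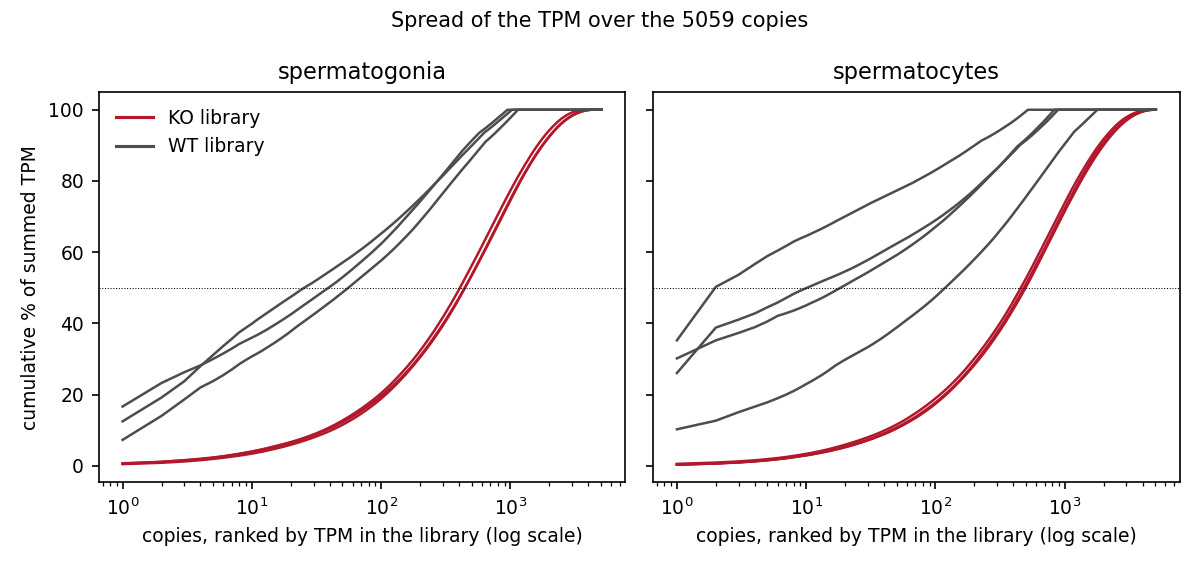
Cumulative percent of the members' summed TPM (y axis) against the number of copies ranked by TPM within each library (x axis, log scale), 1 line per library. KO lines reach 50% after 407 to 498 copies and WT lines after 2 to 119.

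Copy by copy, a test was possible for the minority with enough reads. A mean of at least 0.5 TPM over the libraries of a stage was asked for, and 1 read in a copy of 6000 bp was worth 0.0139 to 0.0400 TPM. In spermatogonia 965 members (19.1%) passed, 942 of them only through the KO libraries, and in spermatocytes 1950 (38.5%), 1928 of them only through KO. Over all 5059 copies the median KO mean was 0.173 TPM in spermatogonia and 0.564 in spermatocytes, 937 and 1928 copies had a KO mean of at least 1 TPM, and 306 and 57 copies were at 0 in every library. WT libraries had no read at all on 2833 members in spermatogonia and 2430 in spermatocytes.

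In spermatocytes 1549 of the 1950 tested copies rose in KO (limma on log2(TPM + 0.1), adjusted p under 0.01), or 79.4% beside 7.17% of all TE copies tested, and 2 fell, beside 4.06% of all. In 1510 of the tested copies no WT library had more than 3 reads, the most that a count of 0 allows, and a fitted fold change of such a copy depends on the pseudocount. For the 289 called copies with more than 3 reads in some WT library, the log2 fold change ran from 3.65 to 7.83 with a median of 5.29. One WT library over the limit is enough for this set, so its larger fold changes can depend on the pseudocount too. L1Md_T_dup2518, at 7.83, had 0, 0, 7 and 0 WT reads. Of the 399 that were not called, 396 had a positive fold change. Every KO library lay above every WT library for 1927 of the tested copies (98.8%, beside 12.7% of all TE copies) and below for 4 (6.43% of all). Since most members passed through their KO level alone, these counts describe the copies and do not stand as separate evidence. By edgeR on whole reads recovered from the TPM, 1932 were higher and 4 lower, beside 6.89% and 5.07% of all TE copies. Over all 5059 members, tested or not, every KO library was above every WT library in 3875 (76.6%, beside 1.1% of all TE copies listed). The count depended on the scaling. The median log2 fold change over all TE copies tested was 1.39 and over the tested members 4.62, or 3.88 with the copies at the WT floor set to 3 reads in each WT library. With the log values of each library centred on its own median over the tested copies, these medians were −1.38 and 1.85. That fit called 12 members higher and 4 lower, beside 0.301% of all TE copies higher and 25839 of 241893 lower. Scaled to all counts, 1959 were higher and 0 lower of 2448 tested, with a median of 2.24 over all TE copies. On that scale 12.9% of all TE copies were higher and 5938 of 263334 lower. Leaving out WT replicate 1 gave 975 higher (beside 3.90% of all TE copies) and leaving out WT replicate 4 gave 1002 (beside 4.00%). The number was 854 with a pseudocount of 1, 536 with the similar replicates 1 and 4 averaged and 454 with the replicate block. These were 43.8, 28.8 and 23.3% of the members tested, beside 4.23, 2.63 and 1.95% of all TE copies.

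In spermatogonia the limma fit called no member in either direction (beside 0.00872% of all TE copies called higher and 0.000396% called lower), with the smallest adjusted p at 0.395. Without adjustment 560 of the 965 tested copies were higher and 0 lower at limma p under 0.05. The share of all TE copies at that p was not computed, so nothing is read from this count. The edgeR quasi-likelihood test on whole reads called 934 higher and 0 lower (beside 1.55% and 0.204% of all). Every KO library lay above every WT library for 936 of the 965 (97.0%, beside 5.36%) and below for 1 (beside 3.23%). The median log2 fold change of the tested members was 3.83 (3.33 with copies at the WT floor set to 3 reads in each WT library), beside 0.03 over all TE copies tested. Over all 5059 members the KO libraries were above in 2761 (54.6%, beside 0.59% of all TE copies listed).

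**Figure D3:**
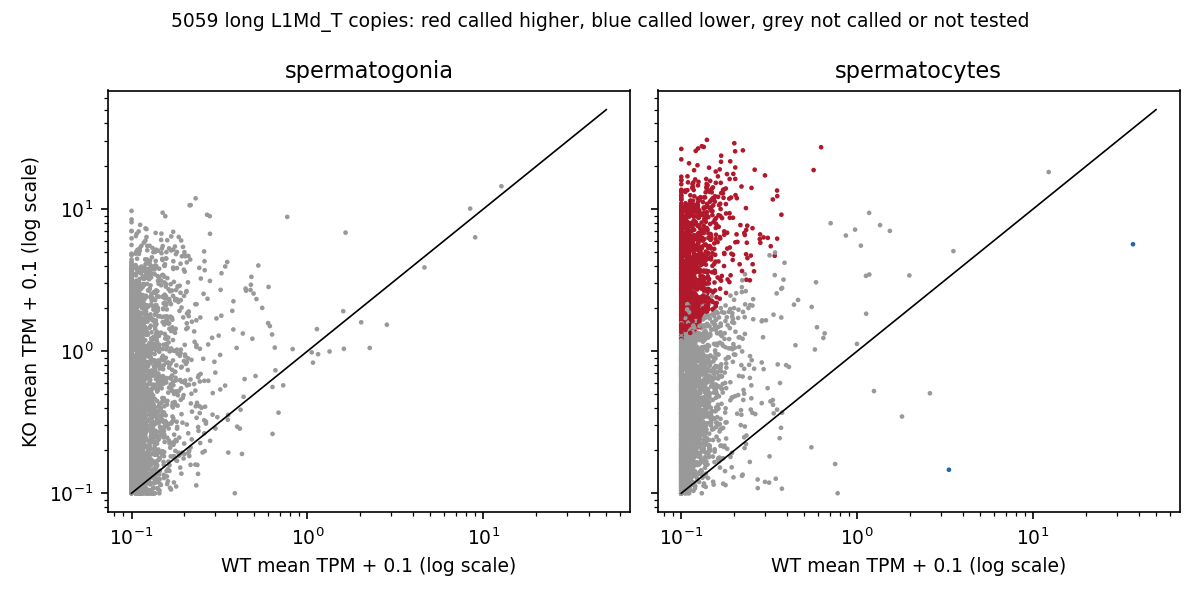
Mean TPM + 0.1 of each long L1Md_T copy in KO (y axis) against WT (x axis), both on log scales, with a line of equality. In spermatocytes 1549 copies called higher are red and the 2 called lower are blue, and in spermatogonia no copy was called.

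The copies with the highest level in KO spermatocytes were single loci near the floor of detection in WT. L1Md_T_dup2518 (chr2:83413502-83419530, plus strand, 6029 bp, intergenic, 9171 bp from Gm13681) had 38.7, 17.0, 25.8 and 40.7 TPM in the KO libraries and 0, 0, 0.159 and 0 in the WT libraries. It was separate in the same way in spermatogonia, with 18.4, 8.40 and 4.78 TPM against 0.0842, 0.221 and 0.036. The spermatocyte fit gave a log2 fold change of 7.83 ± 0.78 (SE, limma adjusted p = 0.000198). Its WT spermatocyte reads were 0, 0, 7 and 0, so the size of this fold change depends on the pseudocount, and edgeR on whole reads gave 9.16.

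L1Md_T_dup19942 (chr14:93209030-93216479, minus strand, 7450 bp) lies in sense orientation in Pcdh9, a protocadherin gene. It had 37.8, 15.5, 19.6 and 42.8 TPM in KO and 0.0553, 0, 0.184 and 0.161 in WT spermatocytes (7.17 ± 0.78 SE, limma adjusted p = 0.000292). All KO libraries were above all WT libraries. The host gene had 31, 53, 27 and 29 counts in KO and 29, 8, 44 and 19 in WT (log2 fold change −0.08, edgeR adjusted p = 0.892), with overlapping groups. In spermatogonia, where the copy was also higher in every KO library, Pcdh9 had 44, 47 and 27 counts in KO and 22, 13 and 23 in WT, separate but not called (0.92 ± 0.41 SE, edgeR adjusted p = 0.711).

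L1Md_T_dup3290 (chr3:4164192-4170853, minus strand, 6662 bp, intergenic) had 30.9, 12.1, 24.9 and 42.4 TPM in KO and 0, 0, 0.124 and 0 in WT spermatocytes (7.69 ± 0.80 SE, limma adjusted p = 0.000233). With 0, 0, 6 and 0 WT reads, this fold change depends on the pseudocount too. L1Md_T_dup8249 (chr6:70047058-70053569, minus strand, 6512 bp) lies 2379 bp from Igkv8-34, a gene segment of the immunoglobulin kappa chain, and had 30.3, 13.7, 24.3 and 40.7 TPM in KO and 0, 0, 0.0632 and 0.0737 in WT (limma adjusted p = 0.000207). Its WT reads were 0, 0, 3 and 2, at or under the floor of 3 per library, so no fold change is given. In both, KO replicate 2 was the lowest KO library, as it was for the sum over all members. L1Md_T_dup23480 (chr19:33762409-33767838, plus strand, 5430 bp, 457 bp from the lipase gene Lipo3) differed from these in its WT level, with 0.531, 0.374, 1.01 and 0.177 TPM against 32.0, 14.2, 25.6 and 36.5 in KO (5.54 ± 0.74 SE, limma adjusted p = 0.000694).

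Some of the copies with large differences had no WT read. L1Md_T_dup21461 (chr16:53824927-53831295, plus strand, 6369 bp, intergenic) had 31.8, 14.9, 19.8 and 38.9 TPM in KO spermatocytes and 16.4, 8.06 and 4.35 in KO spermatogonia (limma adjusted p = 0.000162 in spermatocytes). L1Md_T_dup2014 (chr2:17124176-17131427, minus strand, 7252 bp) had 27.6, 12.6, 18.1 and 30.7 and, in spermatogonia, 14.5, 6.69 and 3.89 TPM (limma adjusted p = 0.000184 in spermatocytes). Both were at 0 in all 7 WT libraries of the study, where a count of 0 allows an expected count of up to 3 per library, and no fold change is given for them. L1Md_T_dup2779 (chr2:105858520-105864124, plus strand, 5605 bp) lies antisense in Elp4, which codes for an Elongator subunit, and had 31.4, 12.2, 24.0 and 38.7 TPM in KO against 0, 0, 0.098 and 0 in WT spermatocytes (7.69 ± 0.78 SE, limma adjusted p = 0.000217). With 0, 0, 4 and 0 WT reads, its fold change depends on the pseudocount.

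A small set of copies had more than traces of RNA in WT. These are picked by their WT level, which by itself lowers the ratio of KO to WT, so their counts are a description. A WT mean of at least 0.5 TPM was reached by 26 members in spermatogonia and 24 in spermatocytes. Of the 26, the KO mean was higher in 12, and 3 had every KO library above every WT library and 1 every KO library below (beside 1.57% and 3.67% of all TE copies with such a WT mean). Of the 24 in spermatocytes the KO mean was higher in 17, and 9 were above and 6 below without overlap (beside 4% and 9.04% of all such TE copies).

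L1Md_T_dup1024 (chr1:107035321-107041388, plus strand, 6068 bp) lies 4198 bp from Serpinb3a, a serine protease inhibitor gene, and was the highest member in every WT spermatocyte library. It had 40.2, 36.6, 23.2 and 47.5 TPM in WT and 5.55, 5.18, 5.78 and 5.70 in KO spermatocytes, and it fell in KO (log2 fold change −2.67 ± 0.48 SE, limma adjusted p = 0.00296). All 4 KO libraries were below all WT libraries, also per 1000000 counts of all features, where it had 6.86, 6.85, 9.0 and 6.92 reads in KO and 22.2, 24.5, 20.8 and 25.2 in WT. The call did not hold on that scale, where the fit called 0 members lower, and none was called lower with the replicate block or with replicates 1 and 4 averaged. In spermatogonia it had 7.69, 5.14 and 5.84 TPM in KO and 10.8, 8.25 and 7.59 in WT, with overlapping groups (−0.51, limma adjusted p = 0.894).

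L1Md_T_dup21057 (chr15:94118243-94124354, minus strand, 6112 bp, 145808 bp from Adamts20) was the other copy that limma called lower in KO spermatocytes. It had 3.47, 3.54, 2.58 and 3.30 TPM in WT and 0.136, 0, 0.0142 and 0.035 in KO (−4.58 ± 0.78 SE, limma adjusted p = 0.00232). It was close to 0 in all spermatogonia libraries but WT replicate 2, which had 0.238 TPM. Both limma calls were lost when WT replicate 1 was left out, which gave 0 members called lower, and without WT replicate 4 there was 1. The markers of pachytene cells and spermatids were higher in the same WT libraries, and their part in these 2 differences was not tested.

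L1Md_T_dup15965 (chr10:50548827-50555000, minus strand, 6174 bp, intergenic) was among the 5 highest in WT spermatocytes, with 2.67, 1.26, 3.51 and 2.53 TPM against 0.471, 0.212, 0.59 and 0.347 in KO. Every KO library was below every WT library, and the copy was called lower by edgeR on whole reads (adjusted p = 0.00108) but not by limma (−2.34 ± 0.80 SE, adjusted p = 0.0638). Per 1000000 counts of all features its groups overlapped.

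Other copies with a WT level had overlapping TPM in both genotypes at 1 or both stages. L1Md_T_dup18258 (chr13:9832021-9838665, minus strand, 6645 bp), which overlaps an exon of Gm24187, had 25.1, 8.34 and 9.67 TPM in KO and 27.3, 5.22 and 5.18 in WT spermatogonia, and 13.3, 25.8, 17.4 and 15.8 against 19.7, 15.6, 5.41 and 7.98 in spermatocytes (limma adjusted p = 0.909 and 0.416). Per 1000000 counts of all features its KO spermatocyte libraries lay above the WT libraries, so the overlap there depended on the scale. L1Md_T_dup9778 (chr7:92598437-92604624, minus strand, 6188 bp, sense in Ankrd42) had 4.62, 5.0, 5.02 and 5.19 TPM in KO and 2.63, 3.11, 5.48 and 2.48 in WT spermatocytes (limma adjusted p = 0.504), while its host gene, counted in the other table, fell (−3.88 ± 0.30 SE on the log2 scale, edgeR adjusted p = 6.51e-06).

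L1Md_T_dup22061 (chr17:21912466-21918847, minus strand, 6382 bp) varied widely within groups, with 5.74, 15.9 and 8.25 TPM in KO and 3.16, 7.62 and 14.2 in WT spermatogonia. Its spermatocyte libraries were separate, with 4.90, 14.2, 4.28 and 7.01 in KO and 0.549, 1.59, 2.37 and 0.489 in WT, and edgeR on whole reads called it higher (adjusted p = 0.0014) while limma did not (2.61 ± 0.82 SE, adjusted p = 0.0502). L1Md_T_dup19670 (chr14:69749402-69754600, plus strand, 5199 bp, sense in 4930480K23Rik) had 2.22, 1.54 and 0.545 TPM in KO and 2.93, 1.73 and 3.53 in WT spermatogonia, and 4.06, 1.63, 3.07 and 4.39 against 0.396, 0.604, 2.17 and 0.924 in spermatocytes (limma adjusted p = 0.17). Per 1000000 counts of all features the spermatocyte libraries of L1Md_T_dup9778 and L1Md_T_dup19670 also separated, with 5.83 to 7.98 reads in KO and 1.34 to 5.01 in WT for the former and 1.85 to 4.56 and 0.188 to 1.66 for the latter.

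Copies that were high in KO at 1 stage tended to be high at the other. Across the 5059 copies the KO means of spermatogonia and spermatocytes, as log2(TPM + 0.1), had r = 0.950 and rho = 0.942, and the WT means 0.593 and 0.309. These are correlations across copies, which share sequence, length and the sharing of reads among near-identical loci, and they are given as a description. Pairs of KO libraries of 1 stage had r of 0.854 to 0.905 in spermatogonia and 0.923 to 0.956 in spermatocytes, and pairs of WT libraries 0.533 to 0.618 and 0.478 to 0.589, but these are single libraries and not means, so their values cannot be set against those between stages. Of the 100 copies with the highest KO mean at each stage, 81 were shared. Of the 965 copies tested in spermatogonia 924 (95.8%) were among the 1549 called higher in spermatocytes, of which they made 59.7%. Nearly all of these copies passed the filter through their KO level alone, so this overlap is a description.

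Length went with KO level, but not along a single line. The median KO level in spermatocytes was 0.286 TPM for 684 copies of 5000 to 5249 bp, 1.15 for 427 copies from 5500 bp, 0.255 for 860 copies from 6000 bp, 1.91 for 597 copies of 6500 to 6999 bp and 3.22 for 213 copies of 7000 bp or more. The share with a KO mean of at least 1 TPM was 18.1, 52.9, 21.5, 67.3 and 74.6% in these classes. Spermatogonia had the same 2 rises, with medians of 0.0688, 0.362, 0.0694, 0.628 and 1.15 TPM. Over all copies the correlation of length with KO level in spermatocytes was weak (r = 0.225, rho = 0.228, n = 5059 copies, a description). TPM is already divided by length.

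**Figure D4:**
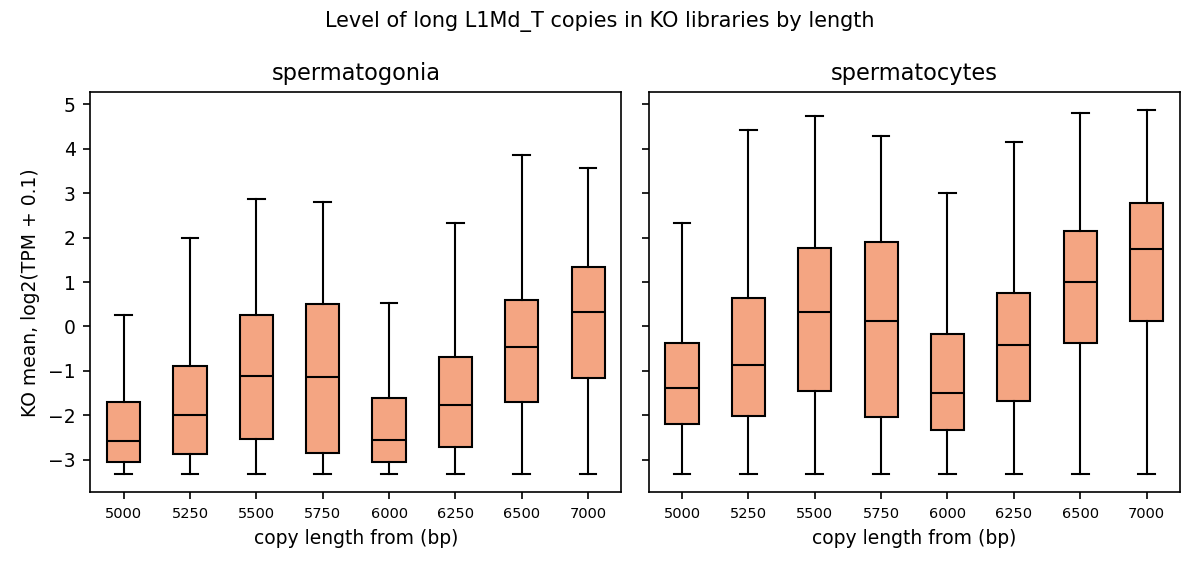
KO mean as log2(TPM + 0.1) of long L1Md_T copies by length class, named by its lower bound in bp, with boxes for the quartiles, a line at the median, whiskers to the farthest copy within 1.5 box heights and no points drawn beyond them. Medians rise from 5000 to 5500 bp, are low again at 6000 bp and are highest from 7000 bp, at 1.15 TPM in spermatogonia and 3.22 in spermatocytes.

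At the length limit itself the copies did not stand out from each other. The 87 members of 5000 to 5099 bp had a median KO level of 0.0293 TPM in spermatogonia and 0.173 in spermatocytes, and the 66 L1Md_T copies of 4900 to 4999 bp just outside had 0.0376 and 0.136. A KO mean of at least 1 TPM in spermatocytes was reached by 11.5% of the former and 9.09% of the latter.

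Most members lie outside genes. By GENCODE M21, 3633 (71.8%) were intergenic, 832 (16.4%) lay antisense and 511 (10.1%) sense within a gene, 26 lay in genes of both strands and 57 overlapped a gene in part, while 113 overlapped an exon. The median KO level in spermatocytes was 0.547 TPM for intergenic, 0.587 for antisense and 0.629 for sense copies, and the number called was 1125 of 1389, 247 of 321 and 151 of 205 tested. On chromosome X, which holds 493 members (9.75%), the median was 0.664 TPM with 162 of 203 called, close to 0.570 TPM and 1377 of 1731 on autosomes. The 82 copies on chromosome Y had a lower median of 0.0809 TPM with 9 of 15 called.

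Measured as a share of the members' summed TPM, the intergenic copies gave 73.7, 73.5, 73.6 and 73.9% in KO and 65.5, 66.1, 65.8 and 70.2% in WT spermatocytes. The KO share was close to the 71.8% of copies that are intergenic and higher than in every WT library (73.7 ± 0.198 against 66.9 ± 2.21, SD, n = 4, exact permutation p = 0.029, adjusted over 4 shares 0.0571). The difference of 6.81 percentage points became 18.6 without L1Md_T_dup1024, which is itself intergenic. In spermatogonia the share was 73.5, 73.6 and 73.1% in KO and 53.6, 62.7 and 63.1% in WT (exact permutation p = 0.1, adjusted 0.1), a difference of 13.6 percentage points that was 8.36 without L1Md_T_dup18258.

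The copies on chromosome X gave 10.5, 10.6, 10.4 and 10.2% of the members' TPM in KO and 2.28, 1.39, 4.90 and 2.13% in WT spermatocytes. KO libraries were at about the share of copies on the X, and all WT libraries were below, WT replicate 3 the least so (10.4 ± 0.175 against 2.67 ± 1.54, SD, n = 4, exact permutation p = 0.029, adjusted 0.0571). Chromosome X is silenced in pachytene spermatocytes, the cells whose markers were higher in the WT sort, and the part of that difference in the X share was not tested. In spermatogonia the shares were 10.1, 10.3 and 10.9% in KO and 5.23, 5.69 and 4.72% in WT (exact permutation p = 0.1, adjusted 0.1).

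Long L1Md_T copies were then set against long copies of a similar subfamily. The 3304 copies of L1Md_A, another young subfamily, of at least 5000 bp summed to 1910, 1200 and 866 TPM in KO and 47.9, 59.2 and 54.7 in WT spermatogonia, so the ratio of long L1Md_T to long L1Md_A was 2.76, 1.88 and 1.86 in KO and 3.42, 1.91 and 2.07 in WT. These groups overlapped (log2 difference −0.16, exact permutation p = 0.5, where the smallest possible is 0.1), although the KO library was the lower in each of the 3 pairs of like number (p = 0.25 by exact sign flips with the replicate block, the smallest possible). With both sets held to 6000 bp or more the difference was −0.45. In spermatocytes the ratio was 1.23, 1.44, 1.13 and 1.22 in KO and 3.41, 2.78, 1.78 and 3.31 in WT, lower in every KO library (−1.13, exact permutation p = 0.029). The difference was −0.69 without the highest copy L1Md_T_dup1024 and −1.79 with both sets held to 6000 bp or more, each with exact permutation p = 0.029.

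Against the 18629 shorter copies of L1Md_T, which summed to 4009 to 9062 TPM in KO and 742 to 911 in WT spermatogonia, the ratio of long to short was 0.581, 0.538 and 0.402 in KO and 0.180, 0.152 and 0.145 in WT (log2 difference 1.66, exact permutation p = 0.1). In spermatocytes it was 0.499, 0.487, 0.494 and 0.525 in KO and 0.215, 0.128, 0.165 and 0.219 in WT (1.5, exact permutation p = 0.029). At both stages every KO library was above every WT library, so the ratio of KO to WT was larger for the long copies than for the short ones. Of the copies tested in spermatocytes, limma called higher 79.4% of long L1Md_T, 56.5% of short L1Md_T, 81.1% of long L1Md_A, 86.5% of 52 long L1Md_Gf and 26.1% of 92 long L1Md_F2 copies, and the differences between these shares were not tested.

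The genes that hold a long L1Md_T copy, 1028 in all, were mostly not called in spermatogonia. Of 577 tested, edgeR called 4, all higher in KO, beside 0.0695% of all features called higher and 0.00463% called lower. They were Sntb1, which codes for the cytoskeletal adaptor beta-1 syntrophin, Pkhd1, which codes for fibrocystin of the kidney and bile duct epithelium, Gc, which codes for the vitamin D-binding protein of blood plasma, and Clca3b, a member of the chloride channel accessory family. All 4 belonged to the 125 tested hosts of a copy with a KO mean of at least 1 TPM. Leaving out KO replicate 2 or WT replicate 1 left 0 called, leaving out KO replicate 3 left 1 and KO replicate 1 left 2. With the replicate number as a block 10 were called, 6 higher and 4 lower (beside 0.551% of all in either direction), and DESeq2 called 38 higher and 17 lower (beside 2.49% of all).

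Sntb1 (ENSMUSG00000060429.12) had 494, 511 and 328 counts in KO and 15, 12 and 14 in WT spermatogonia (4.90 ± 0.33 SE on the log2 scale, edgeR adjusted p = 0.00245). It had 1633, 829, 1445 and 1784 against 0, 2, 0 and 0 in spermatocytes (edgeR adjusted p = 5.92e-06), where no fold change is given because the WT counts cannot be told from 0. It holds L1Md_T_dup20822 (chr15:55670076-55676170, minus strand) in sense orientation, which had 3.59, 2.34 and 1.75 TPM in KO and 0, 0 and 0.0178 in WT spermatogonia, and 8.02, 3.65, 6.51 and 10.3 against 0, 0, 0 and 0.158 in spermatocytes. Gene and copy were both higher in every KO library, while the gene had a low but steady count in WT spermatogonia. A second sense copy, L1Md_T_dup20823, had 1.38, 0.69 and 0.585 TPM in KO spermatogonia and 0 in every WT library.

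Pkhd1 (ENSMUSG00000043760.16) had 551, 479 and 387 counts in KO and 0, 2 and 0 in WT spermatogonia (edgeR adjusted p = 0.00352), and 1222, 711, 1189 and 1446 against 8, 1, 8 and 6 in spermatocytes (log2 fold change 7.04 ± 0.61 SE, edgeR adjusted p = 1.13e-05). Of its 4 members, the sense copy L1Md_T_dup203 (chr1:20277948-20284795, minus strand) was highest, with 6.39, 2.14 and 1.47 TPM in KO and 0.148, 0 and 0 in WT spermatogonia and 11.1, 5.02, 7.41 and 14.5 against 0 in spermatocytes. The antisense copy L1Md_T_dup205 followed with 3.24, 1.62 and 1.47 TPM in KO spermatogonia and 0 in WT.

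Gc (ENSMUSG00000035540.12) had 343, 215 and 274 counts in KO spermatogonia and 495, 488, 427 and 542 in KO spermatocytes, and 0 in all 7 WT libraries (edgeR adjusted p = 0.006 and 1.46e-05). Its sense copy L1Md_T_dup7278 (chr5:89427585-89434476, minus strand) had 3.67, 1.30 and 1.14 TPM in KO and 0.0491, 0 and 0 in WT spermatogonia. Clca3b (ENSMUSG00000037033.9) had 183, 288 and 252 counts in KO and 0, 2 and 0 in WT spermatogonia (edgeR adjusted p = 0.00778), and 640, 332, 632 and 768 against 20, 14, 1 and 15 in spermatocytes (4.90 ± 0.75 SE, edgeR adjusted p = 0.000314). Here the copy, L1Md_T_dup3276 (chr3:144828392-144834820, plus strand), lies antisense, with 9.63, 5.90 and 2.82 TPM in KO spermatogonia and 18.3, 8.07, 12.1 and 25 in KO spermatocytes and 0 in every WT library. None of the 8 members in these 4 genes overlaps an annotated exon, and whether transcripts join copy and gene was not analysed here.

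**Figure D5:**
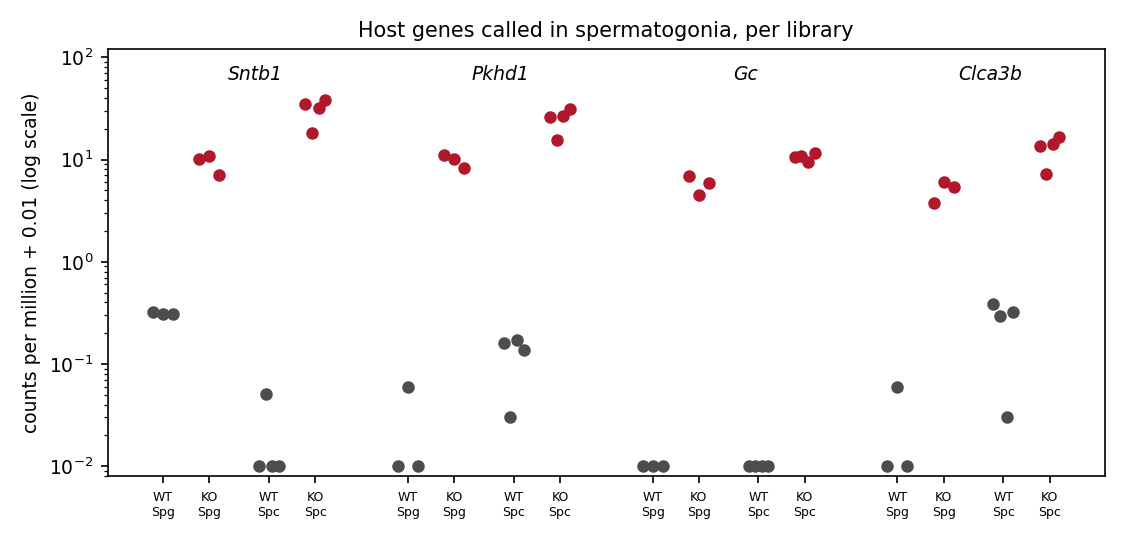
CPM + 0.01 (log axis) of the 4 host genes called in spermatogonia, 1 point per library, grey for WT and red for KO, with Spg for spermatogonia and Spc for spermatocytes. In each gene and stage every KO library lies above every WT library.

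In spermatocytes 468 of 692 tested host genes were called, 258 higher (37.3%, beside 27.4% of all features) and 210 lower (30.3%, beside 30.1%), where 57.4% of all features were called in either direction. With library totals 317 of 692 hosts were higher and 178 lower, beside 13280 of 22848 features called in either direction. With replicates 1 and 4 summed 174 of 694 were higher and 179 lower, beside 8874 of 23213. Higher calls therefore did not outnumber lower calls among hosts in every setting. Shares by direction over all features were not computed for these 2 settings. The 5 with the smallest p and a mean count of at least 50 all fell, among them Piwil1 (log2 fold change −7.57), which codes for the PIWI protein MIWI of pachytene cells, Fhad1 (−6.03) and Sh3gl3 (−3.71), which codes for an endophilin. The copies in these genes were not lower in KO with their hosts. L1Md_T_dup6248 in Fhad1 and L1Md_T_dup7447 in Piwil1 had overlapping groups, with every library at or below 0.505 TPM. L1Md_T_dup9669, sense in Sh3gl3, had 3.45, 1.78, 2.84 and 4.14 TPM in KO and 0.21, 0.126, 0.164 and 0.0817 in WT spermatocytes, opposite to its host.

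Genes that silence or transcribe L1 were read from a list of 24. In spermatogonia edgeR and DESeq2 called 0 of them, beside 0.0741% of all features called by edgeR, and 4 had an unadjusted edgeR p under 0.05 (beside 7.26% of all features), which were Tdrd1, Tdrd9, Ddx4 and Piwil2, with lower means in KO. Every KO library was below every WT library for Tdrd1, Tdrd9 and Ddx4, while the groups overlapped for Piwil2. The pachytene marker Piwil1 was lower in the same KO libraries, and the part of that difference was not tested. In spermatocytes 14 of 24 were called (58.3%), 7 in each direction, a share close to the 57.4% of all features called there, so nothing is read from it about the list. Higher were the de novo methyltransferase genes Dnmt3a (log2 fold change 2.84) and Dnmt3b (1.97), the L1 inhibitors Mov10 (2.23, edgeR adjusted p = 0.000755) and Samhd1 (1.36), Tex15 (2.54, edgeR adjusted p = 0.000393), which acts in piRNA-directed silencing, and the transcription factor genes Creb1 (0.80) and Rbpj (1.38). Lower were the piRNA pathway genes Mael (−3.31, edgeR adjusted p = 1.25e-05), Tdrd1 (−3.44), Tdrd9 (−2.47) and Ddx4 (−1.60), the methylation cofactor genes Dnmt3l (−2.45) and Uhrf1 (−0.78) and the corepressor gene Trim28 (−1.49). Dnmt3l rested on few counts, 22, 14, 14 and 14 in KO and 68, 15, 125 and 40 in WT, and its CPM overlapped. Nrf1 (0.47, edgeR adjusted p = 0.106) and Yy1 (−0.42, edgeR adjusted p = 0.0723), which code for factors that bind L1 or other TE promoters, were not called. Scaled to library totals, the split was 11 higher and 5 lower, and without KO replicate 3 the number called was 9. On that scale Nrf1 had 45.9 to 69.9 CPM in KO and 17.0 to 34.5 in WT, with every KO library above every WT library. Yy1 had a higher mean in KO (117 against 97.4 CPM, opposite in direction to the fit) and Uhrf1 230 against 238 CPM, both with overlapping groups. Several of these genes differ between spermatogonia and pachytene cells, whose markers moved in the same libraries, and the part of that difference was not tested.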

How the data were processed

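Libraries were stranded polyA RNA-seq from sorted germ cells. Per the labels and the study's methods, the authors trimmed reads with cutadapt 4.0, aligned them with STAR 2.7.3a to GRCm38, keeping reads with many alignments, and counted genes and TE subfamilies with TEtranscripts and TE copies with TElocal, both of which share out multi-mapped reads. A near-identical copy can therefore receive part of another copy's reads, and single-locus values are estimates. The deposited gene and subfamily table of each stage holds counts, next to columns of the authors' own DESeq2 1.44.0 comparison (mean, fold change, its error, statistic and p-values), which were not used. The deposited TPM table of each stage holds TPM per TE copy, summing to 1000000 per library, and was made for each stage separately. A copy missing from a table was set to 0 TPM. The authors left out 1 spermatogonia replicate per genotype for RNA quality, and the columns numbered 4 are the samples titled replicate 3.

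Members were all copies named exactly L1Md_T with end minus start of at least 5000 bp. Members, gene lists and tests were chosen with earlier results of these data known. Whole reads were recovered from TPM and copy length (all values whole within 0.001). Depth was 40555726 to 53323651 counts per library. Intervals and limits cover counting error only. Copies were placed against GENCODE M21.

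All TE copies with a mean of at least 0.5 TPM were fitted with limma 3.58.1 (trend) on log2(TPM + 0.1), and all genes and subfamilies with the quasi-likelihood test of edgeR 4.0.16 (TMM), with Benjamini-Hochberg adjusted p under 0.01 as the call. Fold changes on the log2(TPM + 0.1) scale understate the change of low copies. For single values per library an exact permutation test over libraries, two-sided, was used (scipy 1.17.1). DESeq2 1.42.0, edgeR on recovered reads, other pseudocounts, filters and scalings, a replicate block and leaving out each library were alternatives. Scripts were tested on simulated data. Named copies were, per stage, the 5 with the highest KO mean, the 5 with the largest rise among those called higher without overlap, the 5 with the highest WT mean and up to 3 called with the largest fall. Named genes were the hosts of these, the 5 called hosts with the smallest p and a mean count of at least 50, and the 24 listed genes. Copies at the printed sequences and in the 4 spermatogonia host genes were named in addition, after their values were seen.

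The replicate numbers were checked as pairs by the correlation of deviations from group means. In spermatogonia these were 0.46, 0.16 and 0.17 over genes, so the numbers were taken as pairs there by the rule that each exceed 0.1, although KO replicate 2 also went with WT replicate 3 (0.212), above 2 of the 3 like-numbered pairs. In spermatocytes (0.076, 0.21, 0.025 and 0.12) and over TE copies they were not. In spermatocytes replicates 1 and 4 of each genotype were closest to each other (chi-square per degree of freedom 11.6 in KO and 14.9 in WT, against 129 to 286 for the other pairs), above sampling noise. The labels list 4 samples per genotype and these were kept as separate samples, but the study describes 3 biological replicates, so replicates 1 and 4 may not be independent and were averaged or summed as an alternative.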

Additional observations from a re-analysis of the deposited data

Results flagged for a closer look

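In 141 groups of 4 spermatocyte libraries, 18 had a library whose gap to the nearest other, relative to the range, passed the 95% limit of Dixon's test, where chance gives about 1 in 20 for values without ties. That rate does not apply to the 10 groups in which 3 libraries were at 0 and 1 was not, which pass by construction. WT replicate 4 had the highest intergenic share of the members' TPM at 70.18%. WT replicate 3, the library with reads on the most members and the most spermatogonia markers of its group, was the high library for L1Md_T_dup3290 (0.1236 TPM), L1Md_T_dup2518 (0.1594), L1Md_T_dup2779 (0.09797), L1Md_T_dup17899 (0.1652), L1Md_T_dup4872 (0.02425), L1Md_T_dup207 in Pkhd1 (0.0795) and L1Md_T_dup6248 in Fhad1 (0.3083), and for Tex15 (119.4 CPM). For L1Md_T_dup20822 in Sntb1 it was WT replicate 4 (0.1576 TPM), and for L1Md_T_dup354 in 4931428L18Rik WT replicate 1 (0.03524 TPM). Each of these copy values rests on few reads. L1Md_T_dup205 in Pkhd1 was low in KO replicate 2 (2.82 TPM).

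Among genes, WT replicate 2 stood apart for Piwil1 (2496 CPM), Sntb1 (0.04077 CPM) and Uhrf1 (294 CPM), KO replicate 1 for Dnmt3l (0.4661 CPM) and for Gm12478 (0.02119 CPM), and KO replicate 2 for Pcdh9 (1.164 CPM).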

How the results depend on the processing

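Over 18 results, 150 of the alternative values kept direction and side of the threshold (or stayed within 1.5 times for counts), 48 kept direction but no longer passed, 30 moved and 1 reversed: the log2 ratio of long L1Md_T to long L1Md_A in spermatogonia was 0.10 without WT replicate 1, in a range of −0.35 to 0.10 without 1 library. The threshold of the exact tests was 0.05, which no exact test of spermatogonia can reach, so there only the direction could change. All 48 that no longer passed were spermatocyte settings whose smallest possible p is above 0.05. These labels were therefore fixed by the number of libraries. In spermatocytes the replicate block gave p = 0.125, the smallest possible, by exact sign flips of the differences between like-numbered libraries. This held for the summed TPM (5.77), the ratios to long L1Md_A (−1.13) and to short L1Md_T (1.5), the intergenic share (6.81) and the X share (7.73). With replicates 1 and 4 averaged the exact permutation p was 0.1 for 5.63, −1.02 and 1.58. Leaving out 1 library gave 5.58 to 6.06, −1.34 to −1.02, 1.34 to 1.60, 6.34 to 7.90 and 7.30 to 8.47, with 0.0571 the smallest p possible. Members called higher in spermatocytes were 854 with pseudocount 1, 1028 with a minimum of 0.1 TPM, 706 with 2 TPM, 982 without a filter, 12 with each library centred on its median copy, 454 with the replicate block, 536 with replicates 1 and 4 averaged and 975 to 1835 without 1 library. Called lower were 1 at each other filter, 0 when scaled to all counts, 4 centred, 4 by edgeR, 0 with the block, 0 averaged and 0 to 2 without 1 library. In spermatogonia edgeR called 934 members higher. Called host genes there were 55 with DESeq2, 20 without a filter, 10 at adjusted p under 0.05, 10 with the block and 0 to 4 without 1 library. Of the 24 listed genes 8 were called in spermatocytes with replicates 1 and 4 summed and 9 to 16 without 1 library. With the block 13 of the 24 genes (8 higher, 5 lower) and 425 host genes (219 higher, 206 lower) were called in spermatocytes, beside 11629 of 22848 features in either direction, and no other count of calls moved by over 1.5 times. The cause of these shifts was not tested. Shares of TPM by NRF1 motif, monomer number and reading frames were not run, since sequence of the members was read only from annotated transcripts. The printed 5′ ends were therefore chosen from these transcripts. In WT a copy with 0 reads may have an expected count of up to 3, so WT levels this low were not measurable at this depth.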
